A study of Rattus norvegicus with 2 samples.

Results

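The genes described here encode calmodulin (Calm2 and Calm3), the calcium/calmodulin-dependent protein kinases CaMKII (Camk2b, Camk2d and Camk2g) and CaMKIV (Camk4), and calcineurin (Ppp3ca, Ppp3cb and Ppp3r1). They were taken from a list of 9 gene symbols, and each of the 9 was matched by its RefSeq accession to 1 of the 9894 genes listed. The data came from 2 libraries of cells of the cortex, dissociated from Sprague-Dawley rat embryos at embryonic day 16. The cells were electroporated with a plasmid and cultured for 48 h in Neurobasal medium with serum and B27. One culture received the control plasmid, coding for a scrambled siRNA (Scramble), and the other a plasmid coding for an siRNA against PIWIL1 (PIWIL1 RNAi). The siRNA used for sequencing is not named, sorting of transfected cells is not described, and no row (0) carried the symbol Piwil1, so the knockdown was not checked in these libraries.

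Calmodulin is a small protein that changes shape when it binds calcium and then switches other proteins on. CaMKII and CaMKIV are kinases activated in this way, CaMKII being abundant at mature excitatory synapses and CaMKIV acting mainly in the nucleus, where it phosphorylates transcription factors such as CREB. Calcineurin is the phosphatase controlled by the same signal, built from a catalytic A subunit (Ppp3ca, Ppp3cb, and Ppp3cc, which is not on the list) and a regulatory B subunit (Ppp3r1), and its best known substrates are the NFAT transcription factors.

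Each library holds 21-base tags that begin with CATG, and a gene's count is its summed tag copies. The authors also deposited TPM, which here is the share of a gene's copies among the clean tags of the library on a scale of 1000000, with no gene length in it. The count of a gene therefore depends on how many CATG sites were read in it, and levels of different genes were not compared. For the 5 genes with a tag that reached 20 copies over both libraries, the most copied tag is shown because the ratios below rest on it, with the CATG site in capitals.
Calm2, site 1: CATGttgctgttgaagtgtgg
Calm3, site 1: CATGcccgttctcctgatctc
Camk4, site 1: CATGataagcactatagtgat
Ppp3cb, site 1: CATGgtcttaaaatatatttc
Ppp3r1, site 1: CATGttgtgaaatctttagag
Sites are numbered from the 3′ end of the transcript, so all 5 tags lie at the CATG site nearest that end. These tags held 83.4% of the copies of Calm2, 83.8% of those of Calm3, 88.8% of those of Camk4, 93.1% of those of Ppp3cb and 73.6% of those of Ppp3r1. No genome positions are given, because the labels name rn4 and the gene table used for symbols is of another assembly.

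Calm2 and Calm3 encode the same protein with different codons, which raises the question whether tags could tell them apart. The tag farthest from the 3′ end in each gene begins at the start codon (the atg in catg), and both tags are shown with the bases at which they differ in capitals.
Calm2, site 8: catggctgaccaActgacTga
Calm3, site 5: catggctgaccaGctgacCga
Counted from 1 at the first base of the tag, Calm2 and Calm3 differed by A13G and T19C, so that they shared 19 of 21 bases. A single wrong base did not turn one of these tags into the other. These start tags had few copies, 12 in Scramble and 19 in PIWIL1 RNAi for Calm2, and 4 and 5 for Calm3. A second pair of related tags, from site 7 of Calm2 and site 4 of Calm3, differed by A13G and A16G.

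The libraries had similar depth. The Scramble library held 1947600 copies on genes (57.5% of 3386865 clean tags) and the PIWIL1 RNAi library 1865913 (56.5% of 3303360), and neither listed a tag with fewer than 2 copies. Each condition had 1 library, so there was no replicate check, and the exact intervals (95% CI) and tests cover counting error only, since PCR can copy 1 molecule many times. It is not stated whether each library came from 1 embryo or several. Over all genes, 591 of 9894 (5.97%) were called lower in PIWIL1 RNAi and 293 (2.96%) higher. A call needed a Fisher's exact FDR no higher than 0.05 and a log2 ratio of 0.58 or more in size. Both thresholds are those of the study, but the paper names no test for them, and its counts of genes at these thresholds differ from those here. With edgeR's TMM factors the split was 459 lower and 398 higher (53.6% of calls lower in place of 66.9%), and with DESeq2's size factors it was 475 and 382. The 8 neuronal markers checked were all listed in both libraries, and their summed level was 3781 TPM in Scramble and 2967 TPM in PIWIL1 RNAi. The 6 markers of radial glia and astrocytes summed to 228 and 193 TPM, the 4 of mesenchyme, mainly Col1a1, to 434 and 416 TPM, 3 of the 4 of microglia to 15.9 and 18.5 TPM, the 3 of the oligodendrocyte lineage to 3.25 and 4.54 TPM, and of the 2 endothelial markers 0 had a value.

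Of the 9 genes, only Camk4 was called, and it was lower in PIWIL1 RNAi (1 of 9, against 5.97% of all genes called lower). In the other direction 0 of 9 were called, against 2.96% of all genes. When ratios of any size were allowed at a Fisher's exact FDR no higher than 0.05, Calm3 and Camk4 passed, both lower (2 of 9, where 9.53% of all genes passed lower and 7.14% higher). The median log2 ratio of the 8 genes with a ratio was 0.06, against -0.09 for the 8679 genes of all kinds with a ratio, and 3 of the 8 were below 0 and 5 above. These shares are counts in 2 libraries and give no measure of how cultures vary.

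**Figure D1:**
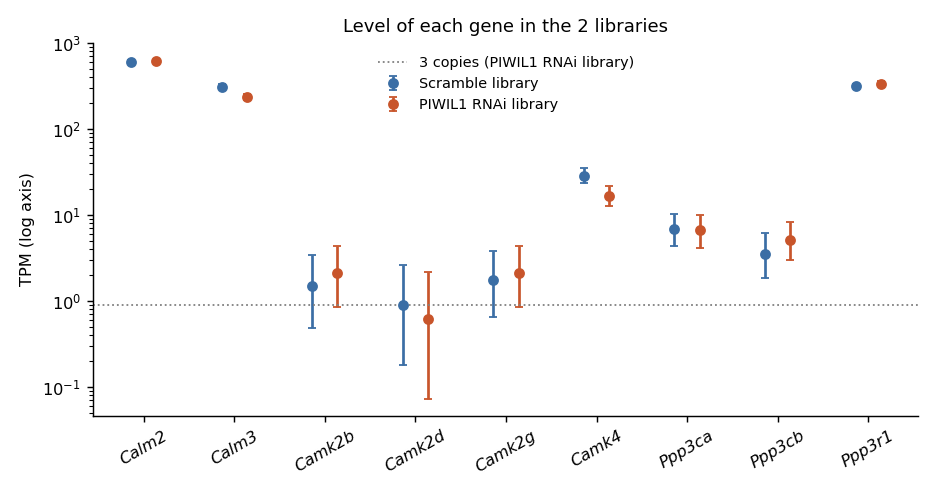
TPM (copies scaled to clean tags, log axis) of the 9 genes in the Scramble (blue) and PIWIL1 RNAi (orange) libraries, with exact 95% Poisson intervals as bars and the level of 3 copies as a dotted line. The intervals cover counting error only. At a Fisher's exact FDR no higher than 0.05, Calm3 and Camk4 passed, both lower, where 9.53% of all genes passed lower and 7.14% higher. The intervals of Camk2b, Camk2d and Camk2g reach below 3 copies. Levels of different genes are not comparable because TPM holds no gene length.

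Among the calmodulin genes, Calm2 differed little between the libraries and Calm3 was lower in PIWIL1 RNAi. Calm2 had 2046 copies in Scramble and 2018 in PIWIL1 RNAi, or 604 and 611 TPM. Its log2 ratio was 0.02 (95% CI -0.07 to 0.11, Fisher's exact FDR 0.616), an interval that lay within the threshold of 0.58 on both sides. Calm3 had 1052 and 775 copies, or 311 and 235 TPM. Calm3 thus had a ratio of 0.755 (log2 -0.40, 95% CI -0.54 to -0.27, Fisher's exact FDR 6.01e-07), so the difference exceeded counting error but was not called, being smaller than 0.58. Its FDR was 0.468 in edgeR's exact test with an assumed coefficient of variation of 0.1, and 0.925 by Fisher's exact test without its most copied tag. The summed level of the neuronal markers differed in the same direction, with a log2 ratio of -0.35, but Stmn2 held 7484 of the 12805 copies of that sum in Scramble. Of the 8 markers, Stmn2, Tubb3, Neurod6 and Snap25 had log2 ratios from -0.72 to -0.36, and Rbfox3, Dcx, Syp and Gad1 from 0.04 to 0.34. The part of the markers in the value of Calm3 was not tested. In bulk samples, fewer cells of a type and less RNA per cell cannot be told apart.

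The subunits of CaMKII were read at the limit of what the depth can show. Camk2b, which encodes the beta subunit that binds actin, had 5 copies in Scramble and 7 in PIWIL1 RNAi (1.48 and 2.12 TPM), all on the single tag CATGgggctggtggaacaagc at site 15. Camk2g, the gamma subunit, had 6 and 7 copies (1.77 and 2.12 TPM) on 3 tags. Camk2d, the delta subunit, had 3 copies on one tag in Scramble and 2 on another in PIWIL1 RNAi. A fold for Camk2d is not given, because 3 copies (0.886 and 0.908 TPM) are the lower limit used here. The log2 ratios were 0.52 for Camk2b (95% CI -1.35 to 2.52) and 0.26 for Camk2g (95% CI -1.54 to 2.11). Intervals this wide hold both a fall and a rise beyond the threshold, so the depth could not show a difference of either subunit. Together the 3 genes had 14 and 16 copies, a log2 ratio of 0.23 (95% CI -0.90 to 1.37). Camk2a, which encodes the alpha subunit of forebrain excitatory neurons, was on the list of other pathway genes described below, and no row carried its symbol.

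CaMKIV was the only kinase or phosphatase gene of the 9 that was called. Camk4 fell from 97 copies in Scramble to 55 in PIWIL1 RNAi, or from 28.6 to 16.7 TPM. This was a ratio of 0.581 (log2 -0.78, 95% CI -1.29 to -0.29, Fisher's exact FDR 0.0156). Most of these copies lay on the site 1 tag shown above, which went from 87 to 48 copies (log2 ratio -0.82, 95% CI -1.36 to -0.30, Fisher's exact FDR over tags 0.0163). Site 2 had 2 and 3 copies and site 4 had 8 and 2, too few to show the fall by themselves. The site 1 tag ends in AT, and the 1040 tags in the libraries with that end and at least 20 copies had a median log2 ratio of -0.39 (quartiles -0.75 and -0.12). When the median of each tag end was taken out, the log2 ratio of Camk4 was -0.50 with a Fisher's exact FDR of 0.244, and it was no longer called. In edgeR's exact test, a coefficient of variation of 0.1 between cultures, assumed and not measured, gave it an FDR of 0.229.

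**Figure D2:**
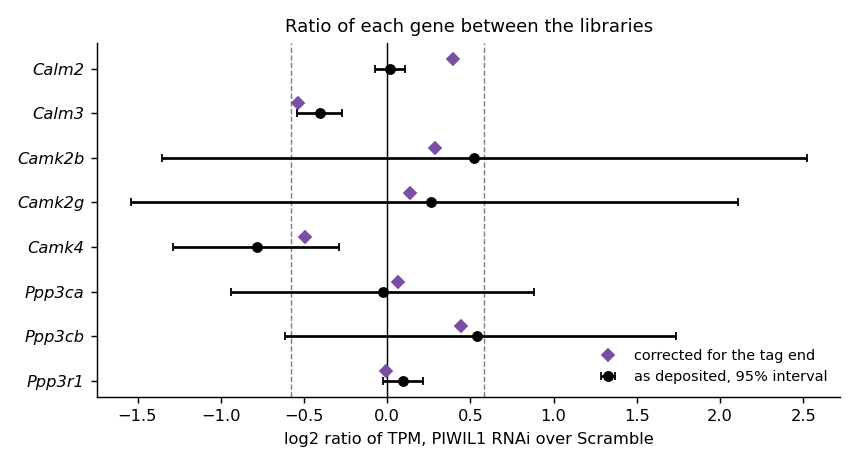
Log2 ratio of TPM (PIWIL1 RNAi over Scramble) of the 8 genes with a ratio, as deposited with exact 95% intervals (black) and after correction for the tag end (purple diamonds), with dashed lines at the threshold of 0.58 in either direction. Only Camk4 (-0.78) lies beyond a dashed line as deposited, and after correction (-0.50) it lies inside.

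For calcineurin, the B subunit was well covered and the A subunits were not. Ppp3r1, the regulatory B subunit, had 1069 copies in Scramble and 1113 in PIWIL1 RNAi, or 316 and 337 TPM. Its log2 ratio was 0.09 (95% CI -0.03 to 0.22, Fisher's exact FDR 0.199), so that a difference of the threshold size lay outside the interval. Ppp3ca, the alpha isoform of the catalytic subunit and the main one of brain, had 23 and 22 copies spread over 6 tags (6.79 and 6.66 TPM). Ppp3cb, the beta isoform, had 12 and 17 copies (3.54 and 5.15 TPM), of which 10 and 17 were on the tag at site 1. The log2 ratios were -0.03 for Ppp3ca (95% CI -0.94 to 0.88) and 0.54 for Ppp3cb (95% CI -0.61 to 1.74). Ppp3cc, the gamma isoform, had 49 and 28 copies and was not called (log2 ratio -0.77, 95% CI -1.50 to -0.07, Fisher's exact FDR 0.132). It had the most copies of the catalytic genes, so their sum rests mainly on it. With Ppp3cc, the catalytic genes together had 84 and 67 copies, a log2 ratio of -0.29 (95% CI -0.78 to 0.19). This interval reached past the threshold for falls and stopped short of it for rises.

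**Figure D3:**
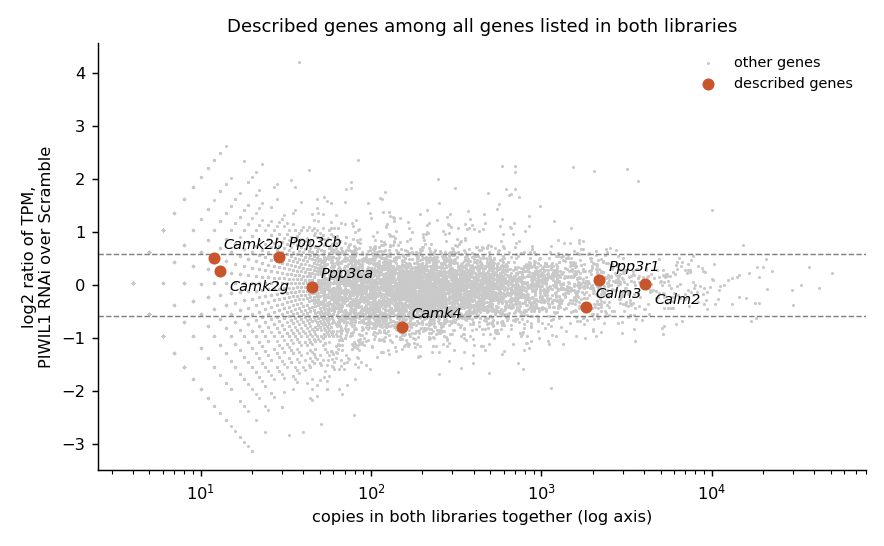
Log2 ratio of TPM (PIWIL1 RNAi over Scramble) against the copies in both libraries together (log axis) for every gene listed in both libraries (grey), with 8 of the 9 described genes in orange and dashed lines at 0.58 in either direction. Calm2, Calm3 and Ppp3r1 have over 1000 copies each and sit inside the dashed lines, Camk4 sits just below the lower line, and the genes with few copies lie where the grey points spread widely.

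Tags were also compared one by one. The 9 genes were read on 58 tags, of which 14 tags in 5 genes had at least 20 copies in both libraries together. Of these 14, 7 were lower and 7 higher in PIWIL1 RNAi. By the same thresholds, 3 were called lower (7.22% of all 16021 such tags were called lower) and 1 higher (4.09% of all). Each tag was also compared with the other tags of its own gene, which leaves out any change of the gene as a whole. In this comparison 3 of the 12 tags tested passed a Fisher's exact FDR of 0.05, against 10.2% of the 14431 tags tested over all genes. Tags of the same gene enter each other's comparison, so these tests are not independent.

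The tags at sites 4 and 5 of Calm2 differed in opposite directions, while that at site 1 differed little. The tags of the 4 inner sites are given with their site.
Calm2, site 4: CATGtttcttccctatcttct
Calm2, site 5: CATGtatagtaattaggactc
Calm2, site 7: CATGatcaatgaagtagatgc
Calm2, site 8: CATGgctgaccaactgactga
At site 1 the tag had 1713 copies in Scramble and 1678 in PIWIL1 RNAi. At site 4 it fell from 139 to 64 copies, a log2 ratio of -1.08 (95% CI -1.53 to -0.65), while the rest of the gene had a log2 ratio of 0.07, and the within-gene Fisher's exact FDR was 5.75e-06. At site 5 the tag rose from 59 to 91 copies, a log2 ratio of 0.66 (95% CI 0.17 to 1.16, Fisher's exact FDR over tags 0.0304). Against the other tags of Calm2 its FDR was 0.0560, which did not pass. The tag at site 7 had 104 and 129 copies and a log2 ratio of 0.35 (95% CI -0.04 to 0.73). The tag at site 4 ends in CT, an end with a median log2 ratio of -0.25 over 1339 tags, and the tag at site 5 in TC, with a median of 0.02 over 1081 tags. The value of the site 4 tag lay below the lower quartile of its end (-0.55). The site 1 tag of Calm2 ends in GG, the end of 689 tags with a median of -0.56 (quartiles -1.02 and -0.04). Its own log2 ratio of 0.01 thus lay above the upper quartile of tags with that end. With the median of each end taken out, Calm2 had a log2 ratio of 0.39 (Fisher's exact FDR 1.39e-19), short of the ratio threshold. That FDR leaves out the spread of tags around the median of their end.

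In Calm3 all 3 tags with at least 20 copies had log2 ratios below 0, and only that of site 1 differed beyond counting error. The site 1 tag had 894 and 637 copies (log2 ratio -0.45, 95% CI -0.60 to -0.30). The tag at site 2, CATGacgaacctgggggagaa, had 112 and 100 copies, and that at site 4, CATGatcaatgaggtggatgc, had 30 and 25. Their log2 ratios of -0.13 and -0.23 were not distinguishable from 0, nor from that of the other tags of the gene (within-gene FDR 0.419 and 0.904 by Fisher's exact test). The site 1 tag ends in TC, whose median was 0.02, and once the tag end was corrected for, Calm3 had a log2 ratio of -0.53 (Fisher's exact FDR 2.64e-11), still short of 0.58.

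In Ppp3r1 the tags at sites 1 and 5 passed the comparison with the other tags of the gene, in opposite directions. These comparisons are not independent. The site 1 tag was set against 312 copies in Scramble and 265 in PIWIL1 RNAi, which included the site 5 tag. The comparison was not repeated without that tag. The first 3 sites lie so close together that their tags overlap, the tag of site 2 sharing 16 bases with that of site 1, and the tag of site 3 sharing 14 with that of site 2.
Ppp3r1, site 3: CATGatacatgtcatgttgtg
Ppp3r1, site 2: CATGtcatgttgtgaaatctt
Ppp3r1, site 1: CATGttgtgaaatctttagag
Ppp3r1, site 5: CATGtgctctgcttcaggagg
The site 1 tag had 757 copies in Scramble and 848 in PIWIL1 RNAi, a log2 ratio of 0.20 (95% CI 0.06 to 0.34), and its within-gene FDR was 0.0482 by Fisher's exact test. The site 2 tag, read only 5 bases upstream, had 193 and 165 copies, a log2 ratio of -0.19 (95% CI -0.50 to 0.12). Tags ending in AG, as at site 1, had a median log2 ratio of 0.11 (quartiles -0.25 and 0.43). Those ending in TT, as at site 2, had a median of -0.22 (quartiles -0.52 and 0.08). Both tags thus lay within the quartiles of their end, and the within-gene test does not take the tag end out. The site 5 tag fell from 49 to 21 copies, a log2 ratio of -1.19 (95% CI up to -0.42, within-gene Fisher's exact FDR 0.0063). This tag ends in GG, with the median of -0.56 and the quartiles given above. Copies at site 1 made up 71.3% of Ppp3r1 in Scramble (95% Wilson interval 68.5 to 73.9) and 76.2% in PIWIL1 RNAi (73.6 to 78.6), intervals that overlapped at their ends. The same share was 84.7% and 85.0% for Calm2, and 85.2% and 82.6% for Calm3, again with overlapping intervals. Overlap of separate intervals is not a test of a difference. By the within-gene Fisher's exact test, the site 1 tag had an FDR of 0.0482 in Ppp3r1, 0.890 in Calm2 and 0.389 in Calm3.

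**Figure D4:**
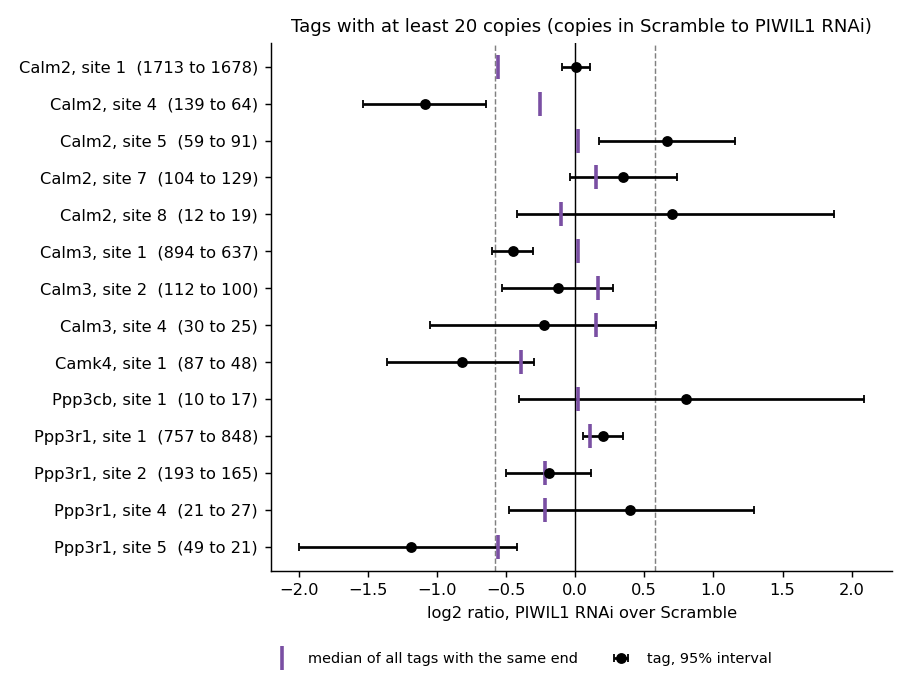
Log2 ratio (PIWIL1 RNAi over Scramble) of the 14 tags with at least 20 copies, with exact 95% intervals, by gene and CATG site counted from the 3′ end, and their copies in both libraries. Purple bars give the median of all tags with the same end, and dashed lines mark 0.58 in either direction. The tags at site 4 of Calm2 (-1.08) and site 5 of Ppp3r1 (-1.19) lie far below the main tags of the same genes (0.01 and 0.20).

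Some tags at a site differed by 1 base from the most copied tag there. Of the 16 tags of Calm2, 11 were of this kind, and they held 0.929% of its copies in Scramble and 1.83% in PIWIL1 RNAi. Of these, CATGttgctgttgaagtgtgc, with the change G21C in the last base, was not listed in Scramble and had 12 copies in PIWIL1 RNAi. Tags with fewer than 2 copies are not listed in either library, so rare tags can be missed. Over all genes, for the 1245 tags with at least 500 copies, tags 1 base away also had more copies in PIWIL1 RNAi, 12.1 against 9.35 for each 1000 copies of the main tag where bases 5 to 20 differed, and 1.48 against 1.17 where the last base did. In Ppp3r1, which had 3 such tags, the share went the other way, from 0.468% to 0.180% of its copies (5 and 2 copies). Calm3 had 2 such tags, Camk4 1 and the remaining genes 0. They were counted with their gene as deposited.

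Other genes of the calcium and calmodulin pathway were counted from a list of 54 symbols in 5 groups. Of these, 39 had a value, under 40 identifiers since Camta1 had 2. At the thresholds 3 were called lower and 1 higher, beside 5.97% and 2.96% of all genes. The median log2 ratio of the 37 with a ratio was -0.42, with 24 below 0 and 12 above. Over all 8679 genes with a ratio the median was -0.09, with 4991 below 0 and 3681 above. Both medians are of ratios as deposited. The median of the list was not recomputed after the tag-end correction, which changed the ratios of several of its genes.
Among the other calmodulin, CaMK and calcineurin genes, 1 of 10 was called lower. This was Camk1, which encodes CaMKI, a kinase with roles in neurite growth, and it fell from 36 to 8 copies (log2 ratio -2.14, Fisher's exact FDR 4.18e-04). After correction for the tag end its log2 ratio was -1.85 and it was still called. Camkv, a pseudokinase of vesicles, had 315 and 230 copies and a log2 ratio of -0.42, short of the threshold. The correction brought the log2 ratio of Camkv to -0.09 (Fisher's exact FDR 0.901).

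Of the membrane and buffer proteins that bind calmodulin, 0 of 4 were called. Gap43, the growth cone protein that holds calmodulin at the membrane, had 2670 and 3541 copies and a log2 ratio of 0.44, which was -0.47 after correction for the tag end, so no direction is given for it. Marcksl1, of the MARCKS family, had 3451 and 3980 copies and a log2 ratio of 0.24 (-0.04 after the correction).
Of the calcineurin regulators and anchors, 1 of 5 was called higher. Rcan2, an inhibitor of calcineurin, rose from 129 to 194 copies (log2 ratio 0.62, 95% CI 0.30 to 0.96, Fisher's exact FDR 9.38e-04), and its log2 ratio was 0.68 after the correction. It was not called on its most copied tag alone. Chp1, a relative of calcineurin B, had 180 and 202 copies and a log2 ratio of 0.20, which did not pass. Rcan1, the related inhibitor whose transcription calcineurin induces, had 191 and 160 copies and a log2 ratio of -0.22, which did not pass. Fkbp1a, the binding protein of the calcineurin inhibitor FK506, had 1246 and 986 copies and a log2 ratio of -0.30 (Fisher's exact FDR 1.14e-04). The correction brought the log2 ratio of Fkbp1a to -0.06 (Fisher's exact FDR 0.923).

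Of the transcription arm, 1 of 8 was called lower. Atf1, a transcription factor of the CREB family, fell from 27 to 9 copies (log2 ratio -1.55, Fisher's exact FDR 0.0290), but was not called after correction for the tag end (Fisher's exact FDR 0.0721). Nfat5 had 151 and 148 copies and Nfatc3, an NFAT factor regulated by calcineurin, had 53 and 57, with log2 ratios of 0.01 and 0.14.
Of the other enzymes and scaffolds that bind calmodulin, 1 of 13 identifiers was called lower. It was the less copied of the identifiers of Camta1, a transcription activator, which fell from 29 to 4 copies on 1 tag (log2 ratio -2.82, Fisher's exact FDR 1.93e-04), while the other identifier of Camta1 had 228 and 200 copies and a log2 ratio of -0.15. With both identifiers summed, Camta1 was not called. Sptan1, the alpha spectrin of the membrane skeleton, had 1876 and 2241 copies (log2 ratio 0.29), and Add1, an adducin that caps actin at the same skeleton, had 549 and 599 (log2 ratio 0.16), both short of the threshold.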

How the data were processed

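The authors deposited 1 table per library, giving for each RefSeq transcript its raw tag count, its TPM (copies scaled to 1000000 clean tags, without gene length), GO terms, and the sequence, CATG site and copy number of each tag. The labels name the build rn4, and the program that matched tags to transcripts is not given in the sources used here. Symbols came from a rat RefSeq gene table by accession (94.4% of 9894 genes). The 9 genes, the pathway list, the tests and the tag-end correction were chosen with earlier results of these data known.

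Log2 ratios were taken from the deposited TPM, with exact (Clopper-Pearson) 95% intervals on copies. Fisher's exact test, two-sided, compared each gene's copies with all other copies on genes, with Benjamini-Hochberg adjustment over 9894 genes. It compares 2 libraries, not conditions. The same test was run over 16021 tags with at least 20 copies, and for 14431 of them against the other tags of their gene. For the tag-end correction, each tag was put in a class given by its final 2 bases (by run length where 3 or more A closed it). The median log2 ratio of the class relative to all tags, estimated on genes other than those corrected, was then removed. Genes named are the 9 genes and, from the pathway list, those called and the 2 with most copies in each of 5 groups, to which Rcan1, Ppp3cc, Camkk1 and a rare Calm2 tag were added after their values were seen. One gene that this rule names is not reported here. With 2 libraries each gene has 1 ratio, so genes with a like pattern were not searched for.

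Alternatives were all clean tags as totals, TMM and DESeq2 size factors, edgeR's exact test with an assumed coefficient of variation, a filter of 10 copies, 1 copy added, 1 copy put back for tags of one library, the tag-end correction, removal of tags with 8 or more A at their end, the most copied tag alone or left out, identifiers summed by symbol, and stricter thresholds. The tests were tested on simulated data drawn with counting error only, which holds no variation between cultures. Python 3.11.15, SciPy 1.17.1, statsmodels 0.14.6, R 4.3.3, edgeR 4.0.16 and DESeq2 1.42.0 were used.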

Additional observations from a re-analysis of the deposited data

How the results depend on the processing

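Over 115 recomputed log2 ratios of single genes, 102 kept their direction and whether the gene was called, which needs both thresholds, 6 lost a call (all Camk4) and 7 changed sign (all Ppp3ca or Ppp3r1, neither called under any of the alternatives). Many of the 102 could not change direction. All clean tags as totals, the copy filter, summed identifiers, removal of tags ending in A and the stricter FDR left these ratios as they were. The assumed variations shared the same ratio for each gene. The stricter log2 threshold is not among the 115. The count of genes called lower went from 1 to 0 with an assumed variation of 0.1, 0.2 or 0.4, the tag-end correction, the most copied tag left out, a stricter log2 threshold (1) and a stricter FDR (0.001). The log2 ratio of Camk4 ran from -0.82 to -0.48. No gene was called higher under any alternative (0). Single thresholds were crossed without a change of call. Calm3 had an FDR above 0.05 with assumed variation (0.468 at 0.1) and without its most copied tag (0.925), Calm2 passed the FDR after the tag-end correction, and Ppp3r1 passed it with TMM factors (0.0180), size factors (0.0267) and the most copied tag alone (0.0440). The log2 ratio of Camk2b was 0.62 and that of Ppp3cb 0.63 with TMM factors, beyond 0.58, and neither passed the FDR under any alternative. The log2 ratio of Ppp3ca was 0.0664 with TMM factors, 0.0569 with DESeq2's size factors, 0.0360 with 1 copy put back, 0.0668 after the tag-end correction and 0.399 on the most copied tag alone, and that of Ppp3r1 was -0.00837 after the tag-end correction and -0.20 without its most copied tag. In the pathway list, 5 genes were lower on the most copied tag alone (Camkk1 and Camkv in addition), 0 without that tag and 0 with an assumed variation of 0.2 or 0.4. With identifiers summed, Camta1 lost its call and 2 genes were lower. The count called higher was 0 with an assumed variation of 0.1, 0.2 or 0.4 and a log2 threshold of 1, and on the most copied tag alone the 1 gene called higher was Gap43 in place of Rcan2. Over all genes, 170 were lower and 114 higher with an assumed variation of 0.1, 2 and 15 with 0.2, and 0 and 0 with 0.4, and 377 and 180 after the tag-end correction. Depth limits Camk2b, Camk2d, Camk2g, Ppp3ca and Ppp3cb, each with 23 copies or fewer in either library, and Camk2d has no ratio. No paired analysis was possible because each condition has 1 library. The cause of these changes was not tested.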
